A study of Mus musculus with 32 samples.

Results

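The transcripts described here are 36 genes of macrophages and dendritic cells, followed through RNA sequencing of isolated mouse CD4+ T cells. They were taken by name as genes that resident macrophages and dendritic cells are known for. The list was drawn up with earlier results of these data known, so its counts beside the shares over all genes are a description. All 36 were among the 24302 genes counted in each library. The T cells were isolated from spleens and lymph nodes (inguinal, axillary) of C57BL/6J mice that carry the label wild type (WT) or Nur77KO (KO), Nur77 being the nuclear receptor encoded by Nr4a1. Each genotype was sampled unstimulated, after 12 h of stimulation with antibodies to CD3 and CD28, and after that stimulation in the presence of 10 µg/ml of XCT790, known as an ERR-alpha inverse agonist, or of CompA, which is a code name. This gave 8 groups of 4 libraries, and the samples labelled control are taken as unstimulated because their titles say so. The vehicle of the stimulated cells was not given in the sources used here. Separate animals behind the 4 libraries of a group are not mentioned by the labels either, so p-values measure the spread between these libraries, which may be technical. The title numbers run from 1 to 16 in WT and from 25 to 40 in KO, so the order of the libraries cannot be told apart from the genotype. Within a genotype they form runs of 4 consecutive numbers with 1 library of each treatment, and libraries are called 1 to 4 below by the order of these runs.

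Resident macrophages of the spleen clear aged red cells and dying cells, recycle iron and coat particles with complement, and they depend on signals through the receptor Csf1r. Dendritic cells take up antigen and present it to T cells, and their development depends on the receptor Flt3. CD4+ T cells are not known as a main source of most of these transcripts, so their presence in a library of isolated T cells is read here as a level in the library, without a statement on which cell made them. In bulk RNA, fewer cells of a type and less RNA per cell cannot be told apart.

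Promoter sequence, which the selection of the members did not use, was read for 3 motifs, and most members held none of them. The 8 letters GAGGAAGT, a box bound by PU.1, the transcription factor of macrophage genes, were searched on both strands in promoter windows of 300 bases, with 250 before and 50 after the start of the gene. RefSeq windows on GRCm38.p6 were found for 30 of the 36 members, and 4 of these 30 (13.3%) held the box, against 997 of 27025 genes (3.69%). They belong to C1qc (chr4:136892865-136893164, minus strand), Emr4 (chr17:55749734-55750033, plus strand), Ptgs1 (chr2:36230176-36230475, plus strand) and Slco2b1 (chr7:99711291-99711590, minus strand). They are written 5′ to 3′ on the strand of the gene, with the box in capitals, which reads ACTTCCTC where it lies on the other strand.
C1qc: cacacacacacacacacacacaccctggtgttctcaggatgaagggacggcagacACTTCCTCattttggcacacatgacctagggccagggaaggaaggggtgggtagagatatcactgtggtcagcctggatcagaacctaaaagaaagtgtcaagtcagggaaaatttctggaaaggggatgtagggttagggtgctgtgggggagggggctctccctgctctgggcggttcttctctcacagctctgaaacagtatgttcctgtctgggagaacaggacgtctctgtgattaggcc
Emr4: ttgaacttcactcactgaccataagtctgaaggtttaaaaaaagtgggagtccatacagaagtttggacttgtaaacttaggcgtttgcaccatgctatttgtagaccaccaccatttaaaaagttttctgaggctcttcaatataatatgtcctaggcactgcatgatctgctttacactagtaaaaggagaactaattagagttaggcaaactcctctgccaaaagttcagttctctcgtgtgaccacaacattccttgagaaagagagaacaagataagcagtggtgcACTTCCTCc
Ptgs1: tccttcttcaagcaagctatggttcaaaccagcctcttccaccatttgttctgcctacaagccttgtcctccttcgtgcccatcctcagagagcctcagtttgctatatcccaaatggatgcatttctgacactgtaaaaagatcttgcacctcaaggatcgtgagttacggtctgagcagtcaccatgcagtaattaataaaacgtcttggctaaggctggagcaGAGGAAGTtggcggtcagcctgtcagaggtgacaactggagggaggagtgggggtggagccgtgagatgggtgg
Slco2b1: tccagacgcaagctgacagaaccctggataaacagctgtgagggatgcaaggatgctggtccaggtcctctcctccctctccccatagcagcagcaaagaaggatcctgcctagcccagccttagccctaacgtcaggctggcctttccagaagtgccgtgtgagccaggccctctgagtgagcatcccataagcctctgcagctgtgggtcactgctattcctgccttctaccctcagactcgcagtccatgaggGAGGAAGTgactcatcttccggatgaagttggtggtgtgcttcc
The letters TGCTGAC, a MAF half-site that overlaps neither of the other motifs, were found for 0 of the 30 members and for 5.28% of all genes with a window. An interferon-type element is a pair of GAAA repeats with any 2 letters between them. It was found for 3 of the 30 members (10%), Sirpb1a, Tgfbi and Aif1, and for 3.99% of all genes with a window. These are matches of letters, not sites shown to be bound.

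Libraries held 16.0 to 23.7 megacounts in genes, and 13060 to 15148 genes had at least 1 count. Levels are counts per megacount (CPM) after TMM scaling, which corrects for differences in library composition. Nr4a1, the targeted gene, was not called lower with the KO label under any of the 4 treatments, and was called higher after stimulation (adjusted p = 0.00148). It ranged from 45.2 to 96.0 CPM in unstimulated WT and from 86.2 to 110 CPM in unstimulated KO-labelled libraries, and from 130 to 207 and from 229 to 506 CPM after stimulation. The genotype is therefore called KO-labelled throughout. The summed level of 11 T cell markers lay between 4860 and 6954 CPM in all 32 libraries. Library 2 of every KO-labelled group stood apart by its B cell markers, 748 CPM against 94.4 to 158 CPM in the other unstimulated KO-labelled libraries. The 4 stimulated WT libraries stood apart from the other 20 stimulated libraries by the members themselves, whose sum was 1042 to 3030 CPM there and 124 to 317 CPM in the rest.

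The heatmap of all members by library gives the whole pattern, with high levels in both unstimulated groups and in stimulated WT libraries and low levels elsewhere.

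**Figure D1:**
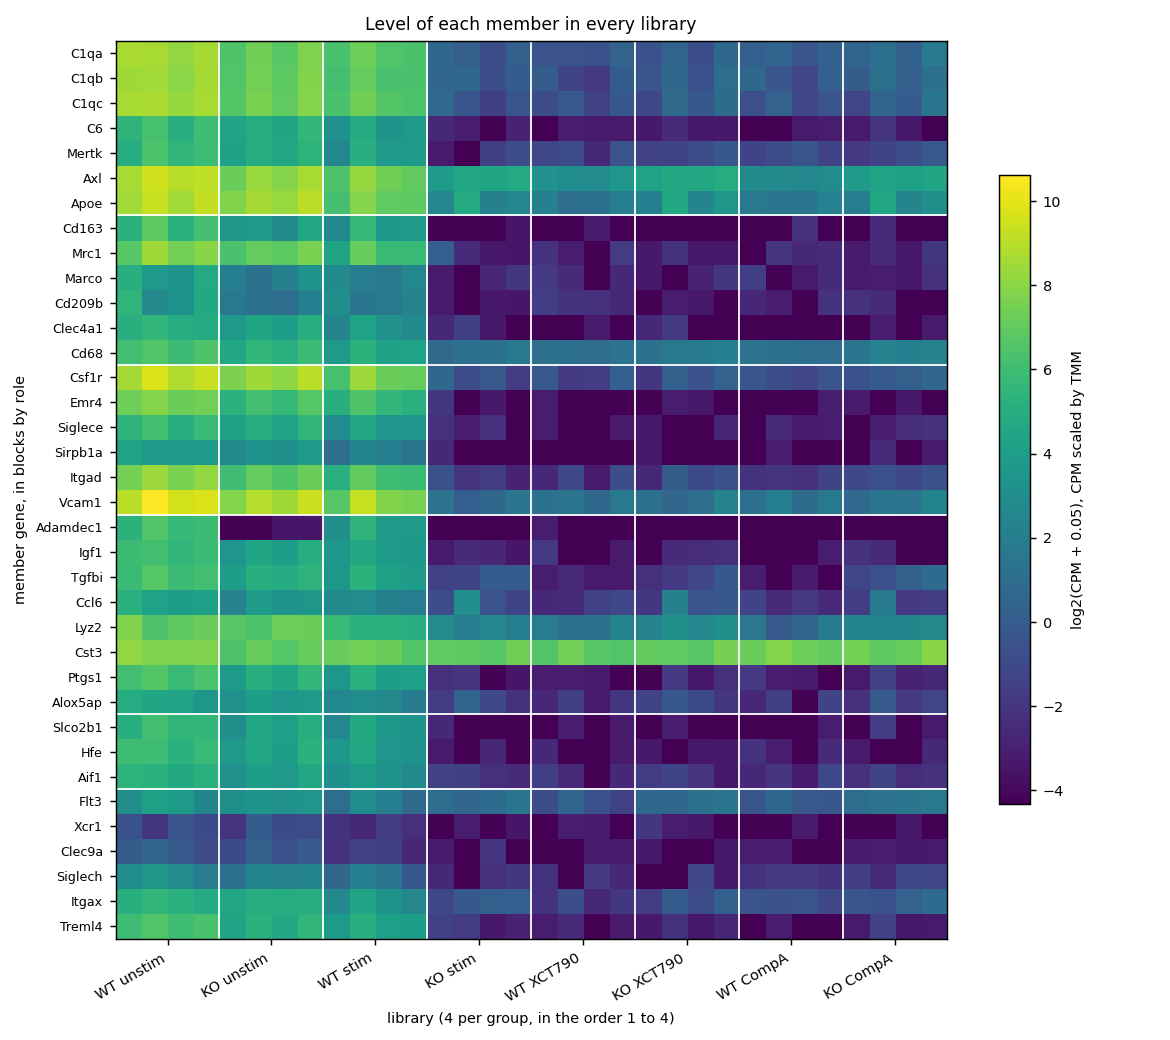
Level of each of the 36 members (rows, in blocks by role) in each of the 32 libraries (columns, 4 per group in the order 1 to 4), as log2 of CPM plus 0.05, where colour runs from dark (low) to bright (high). The unstimulated libraries and the stimulated WT libraries are bright, the other stimulated libraries are dark in nearly all rows, Cst3 is bright in every library and Adamdec1 is dark in all KO-labelled libraries.

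Before stimulation, 23 of the 36 members were lower in KO-labelled libraries and the other 13 did not pass the test. A gene was called when edgeR's quasi-likelihood test gave an adjusted p under 0.05 over the 12332 genes tested, a filter on low counts that all 36 members passed. No member was called higher, and 23.6% of all genes tested were called lower, 12.5% higher and 36.1% in either direction. The median member difference (KO minus WT) was -1.06 on the log2 scale, against -0.08 over all genes. In 18 members every KO-labelled library lay below every WT library, as did 19.8% of all genes. The summed level of the members was 4734, 7518, 4551 and 5981 CPM in the 4 WT libraries and 1732, 3118, 2380 and 4180 CPM in the KO-labelled ones, without overlap.

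Among genes of complement and of the uptake of dying cells, 6 of 7 fell in the unstimulated comparison. For this role and those below, the share to set beside the count is the 23.6% of all genes called lower. C1qa encodes the A chain of C1q, the molecule that starts the classical complement pathway. It stood at 412, 399, 287 and 380 CPM in WT and at 89.4, 169, 107 and 208 CPM in KO-labelled libraries. All 4 KO-labelled values were lower, 2.58-fold by the fit (log2 -1.37, SE 0.26, adjusted p = 0.000351). C1qc, another chain of the same molecule, was at 404, 421, 301 and 408 CPM against 98.2, 198, 126 and 242 CPM (log2 -1.21, SE 0.30, adjusted p = 0.00371), again without overlap, and C1qb fell by 1.19 on the log2 scale. Axl, a receptor tyrosine kinase that recognises dying cells through bridging ligands, was at 410, 754, 506 and 579 CPM in WT and at 150, 315, 236 and 406 CPM in KO-labelled libraries. Its groups missed each other by a few CPM, and it was 2.03-fold lower (log2 -1.02, SE 0.28, adjusted p = 0.00671). Mertk, a receptor of the same family, and C6, a part of the membrane attack complex, were called with log2 differences of -0.94 and -0.84 and adjusted p of 0.0417 and 0.0242. Apoe, a lipid carrier that macrophages secrete, was not called, with 367, 623, 379 and 595 CPM against 224, 390, 316 and 535 CPM (log2 -0.42, SE 0.50, adjusted p = 0.516).

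Of the scavenger and lectin receptors, 4 of 6 fell. Cd163, the receptor for haemoglobin bound to haptoglobin, was at 36.7, 120, 36.6 and 70.7 CPM in WT and at 12.2, 14.0, 7.14 and 24.6 CPM in KO-labelled libraries. No library overlapped, and the level was 4.57-fold lower (log2 -2.19, SE 0.46, adjusted p = 0.00108). Cd209b and Marco, a lectin and a scavenger receptor of macrophages of the splenic marginal zone, had the smallest adjusted p of this role. Cd209b was at 44.2, 6.60, 10.2 and 26.8 CPM against 3.24, 2.46, 2.06 and 4.32 CPM, 7.25-fold lower (adjusted p = 3.88e-05), and without WT library 1 the log2 difference moved from -2.86 to -2.22. Marco was at 32.9, 13.7, 10.1 and 27.9 CPM against 4.30, 2.46, 4.54 and 10.3 CPM. KO-labelled library 4 reached the lowest WT library, and Marco was 3.91-fold lower (adjusted p = 0.000718). Cd68, a glycoprotein of lysosomes, was at 67.5, 92.8, 60.4 and 89.0 CPM against 24.7, 47.4, 35.8 and 60.5 CPM (log2 -0.88, SE 0.25, adjusted p = 0.00817). Mrc1, the mannose receptor, was not called. Its values were 106, 358, 173 and 250 CPM in WT and 79.2, 135, 113 and 198 CPM in KO-labelled libraries (adjusted p = 0.126). Clec4a1, a C-type lectin, was at 33.2, 46.3, 30.4 and 29.6 CPM against 13.7, 22.2, 16.4 and 32.1 CPM (adjusted p = 0.0925).

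Of the growth factor, adhesion and signalling receptors, 4 of 6 fell. Emr4, an adhesion receptor of the F4/80 family now called Adgre4, was at 161, 237, 156 and 172 CPM in WT and at 37.1, 71.8, 48.9 and 100 CPM in KO-labelled libraries. The groups were separate, with a level 2.81-fold lower (log2 -1.49, SE 0.27, adjusted p = 0.000235). Itgad, the CD11d integrin chain of red pulp macrophages, was separate as well, at 183, 342, 195 and 293 CPM against 66.0, 134, 90.2 and 151 CPM (log2 -1.20, SE 0.30, adjusted p = 0.00357). Vcam1, the adhesion partner of the integrin VLA-4, was at 542, 1562, 756 and 907 CPM against 232, 487, 352 and 692 CPM. KO-labelled library 4 lay above WT library 1, and the call stood close to the threshold (log2 -1.10, SE 0.40, adjusted p = 0.0351). Csf1r, the receptor for the growth factor Csf1, overlapped more and was not called, at 394, 885, 463 and 654 CPM against 201, 355, 268 and 530 CPM (log2 -0.82, SE 0.34, adjusted p = 0.0602). Siglece, an inhibitory receptor for sialic acid, was called with a log2 difference of -0.79 (adjusted p = 0.0438), and Sirpb1a, a signal-regulatory protein, was not (log2 -0.60, adjusted p = 0.118).

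Secreted factors and enzymes held the largest difference of the list. Adamdec1, a secreted metalloprotease, was at 38.3, 95.4, 50.4 and 60.4 CPM in WT and at 0, 0, 0.0413 and 0.0436 CPM in KO-labelled libraries. The KO-labelled group held 2 counts against 4834 in WT, a ratio of 2980 with a 95% interval of 826 to 24700 that covers counting error only. Of the other 7 genes of this role 4 fell. Tgfbi, an extracellular matrix protein, was at 57.4, 103, 57.6 and 68.8 CPM against 16.7, 33.3, 29.3 and 41.3 CPM (log2 -1.25, SE 0.32, adjusted p = 0.00414). Ptgs1, the constitutive cyclooxygenase, was at 67.4, 96.0, 54.3 and 82.5 CPM against 14.1, 33.1, 22.2 and 47.5 CPM (log2 -1.36, SE 0.31, adjusted p = 0.00181). Both were without overlap, as was Igf1, the growth factor, which fell by 1.54. Cst3, a secreted inhibitor of cysteine proteases, was at 291, 207, 212 and 215 CPM against 86.0, 141, 102 and 143 CPM (log2 -0.97, SE 0.24, adjusted p = 0.00338). Lyz2, the lysozyme of macrophages and neutrophils, overlapped throughout and was not called, at 220, 88.1, 121 and 145 CPM against 107, 83.3, 158 and 150 CPM (log2 -0.21, SE 0.28, adjusted p = 0.582). The chemokine gene Ccl6 was separate between the groups yet not called, at 35.8, 20.1, 16.7 and 17.7 CPM against 4.85, 14.4, 9.99 and 12.0 CPM (log2 -1.13, SE 0.68, adjusted p = 0.188). Alox5ap, the activating protein of 5-lipoxygenase, was not called (log2 -0.70, adjusted p = 0.128).

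All 3 genes of transport, iron handling and cytoskeleton fell without overlap, where 19.8% of all genes were lower without overlap. Hfe, a regulator of iron uptake, was at 62.7, 63.2, 37.6 and 54.6 CPM in WT and at 13.6, 23.6, 16.1 and 36.9 CPM in KO-labelled libraries (log2 -1.27, SE 0.29, adjusted p = 0.00171). Slco2b1, an organic anion transporter, was at 33.1, 69.8, 43.4 and 48.1 CPM against 8.13, 24.6, 16.8 and 31.2 CPM (log2 -1.27, SE 0.36, adjusted p = 0.008). Aif1, which encodes the actin-binding protein Iba1, was at 40.2, 37.2, 27.1 and 35.9 CPM against 9.42, 15.8, 12.7 and 23.4 CPM (log2 -1.20, SE 0.27, adjusted p = 0.00164).

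Of the 6 genes listed for dendritic cells, 1 fell, near the 23.6% of all genes called lower. This was Treml4, a receptor of splenic macrophages and CD8+ dendritic cells that binds dying cells, at 62.1, 93.3, 61.7 and 80.5 CPM in WT against 21.5, 36.7, 25.5 and 46.0 CPM in KO-labelled libraries (log2 -1.20, SE 0.25, adjusted p = 0.000954). Flt3, the growth factor receptor of the lineage, was at 8.28, 17.6, 13.8 and 5.76 CPM against 8.52, 10.8, 9.49 and 10.9 CPM, with the KO-labelled values inside the WT range (log2 -0.20, SE 0.35, adjusted p = 0.675). Itgax, the CD11c integrin chain, was at 32.8, 48.2, 37.7 and 29.7 CPM against 25.0, 31.7, 30.0 and 31.7 CPM (log2 -0.33, SE 0.30, adjusted p = 0.389). Siglech, a receptor of plasmacytoid dendritic cells, was at 7.83, 12.1, 7.33 and 3.84 CPM against 2.42, 5.35, 4.95 and 5.32 CPM (adjusted p = 0.147). Xcr1 and Clec9a, 2 receptors of cross-presenting dendritic cells, were at most 1.42 CPM in any library, with log2 differences of 0.06 (SE 0.47) and -0.32 (SE 0.40). The median log2 difference of the dendritic genes was -0.32, and those of the 5 macrophage roles lay between -0.96 and -1.42. The difference between roles was not tested.

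Calls near the threshold rested on single libraries. C6 lost its call without WT library 2 or 4 or KO-labelled library 1 or 3 (adjusted p 0.0514 to 0.0888), Mertk without WT library 2 or 4 or KO-labelled library 1, 2 or 3 (0.0573 to 0.141), Siglece without WT library 1, 2 or 4 or KO-labelled library 1, 2 or 3 (0.0586 to 0.144), and Vcam1 without WT library 2 or KO-labelled library 1, 2 or 3 (0.0513 to 0.136). Without KO-labelled library 4, in which the members were highest, Clec4a1 (adjusted p = 0.0383), Csf1r (0.0217) and Sirpb1a (0.0478) were called as well.

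**Figure D2:**
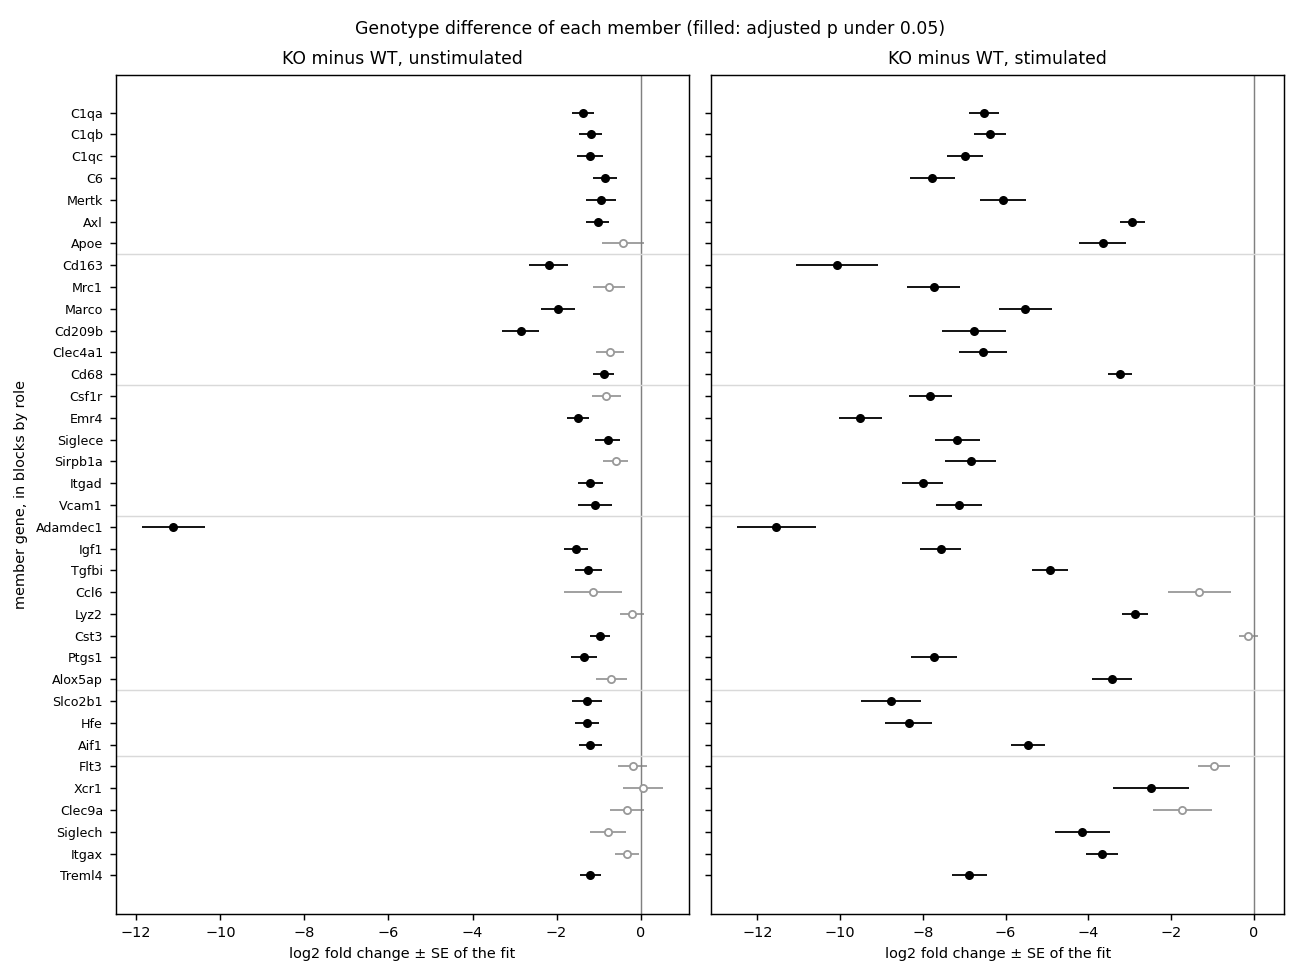
Log2 fold change of each member (rows, in blocks by role) between KO-labelled and WT libraries, unstimulated on the left and stimulated on the right, with bars of 1 SE of the fit over 4 libraries a group and filled points for an adjusted p under 0.05. All 23 filled points on the left lie below 0, Adamdec1 lies far from the rest, and on the right 32 points are filled, all below -2. The scale depends on the prior count of the fit for members with few or no counts in a group.

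The mix of members within a library was compared as well, by taking each member as a percent of the summed member level of its library. In 28 of 36 members the percentages of unstimulated WT and KO-labelled libraries overlapped. Without overlap, 6 members (Cd163, Emr4, Adamdec1, Igf1, Ptgs1 and Treml4) took a smaller share in KO-labelled libraries and 2 (Apoe and Clec9a) a larger one. With 4 libraries a group some members can be separate by chance. No share over all genes stands beside these counts, because the percent is defined for members only. The shares of Clec9a rest on 12 to 28 counts a library. Emr4 made up 2.88 to 3.42% of the sum in WT and 2.06 to 2.40% in KO-labelled libraries, and Cd163 0.776 to 1.60% and 0.300 to 0.702%. Apoe made up 7.76 to 9.94% in WT and 12.5 to 13.3% in KO-labelled libraries. Shares within a library depend on one another, and no test was made of them.

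After stimulation the members fell in both genotypes, and how far they fell differed. In WT all 36 were called lower than in unstimulated cells, where 38.8% of all genes were, with a median log2 change of -1.81 and with log2 changes between -2.17 and -0.73. Without unstimulated WT library 1, Ccl6 (adjusted p = 0.0579), Cst3 (0.0594) and Xcr1 (0.0625) lost the call, and Xcr1 also lost it without stimulated library 2 (0.0528) or unstimulated library 3 (0.059). Without stimulated WT library 2, where the members were highest, the log2 changes of Cd163 (-2.52), Mrc1 (-2.38), Vcam1 (-2.45) and Adamdec1 (-2.34) were below that range, and without unstimulated library 1 that of Cd209b went from -2.17 to -1.48. In KO-labelled cells 34 were called lower, where 42.4% of all genes were, with a median log2 change of -6.93. The 2 not called were Cst3 (log2 0.12, SE 0.24) and Adamdec1, which had 2 counts before and 0 after.

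What was left after stimulation was taken as the mean level in percent of the unstimulated mean of the same genotype, and a member was said to remain above 10%. In WT all 36 members remained, 35 of them at 22.3 to 34.3% and Cst3 at 60.3%. In KO-labelled cells 3 remained, namely Cst3 (108%, or 86.0% when scaled by library totals), Ccl6 (23.2%) and Flt3 (20.1%), and Ccl6 owed its level to library 2. The summed level stood at 30.2% of the unstimulated one in WT and at 6.44% in KO-labelled cells. C1qa fell to 79.3, 157, 93.0 and 80.3 CPM in WT and to 1.61, 1.11, 0.550 and 1.2 CPM in KO-labelled cells. Csf1r fell to 77.7, 344, 155 and 133 CPM and to 1.56, 0.494, 0.85 and 0.262 CPM. The change with stimulation differed between genotypes for 30 members, all with the larger fall in KO-labelled cells, where 16.5% of all genes were called in that direction. The 6 others were Adamdec1, Ccl6, Cst3, Flt3, Xcr1 and Clec9a.

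In WT, the stimulated library of a run held the members in nearly the same proportions as the unstimulated library of that run. The median ratio of stimulated to unstimulated level over the 36 members was 19.9, 38.7, 31.2 and 21.1% in runs 1 to 4, and the middle 50 percent of members lay within 19.2 to 21.3, 37.3 to 40.3, 30.2 to 33.3 and 20.4 to 22.0%. The spread of the log2 ratio was taken over 32 members, those with at least 100 counts in every unstimulated WT library and without Cst3. Its SD was 0.0941 to 0.192 for the 4 pairs of libraries from the same run and 0.428 to 1.00 for the 12 pairs from different runs. With Cst3 kept, over 33 members, it was 0.215 to 0.298 and 0.438 to 1.04. Marco, at 32.9, 13.7, 10.1 and 27.9 CPM before, was at 6.96, 4.01, 3.04 and 5.88 CPM after stimulation. Flt3 went from 8.28, 17.6, 13.8 and 5.76 CPM to 1.93, 7.59, 4.29 and 1.73 CPM. Both kept the order of the 4 libraries, while other members, such as C1qa and Csf1r, did not. Markers of neutrophils, cells that are not among the members, fell as well, from 265, 29.7, 30.0 and 95 CPM summed over 13 genes to 57.0, 12.4, 8.38 and 21.2 CPM. In KO-labelled cells the median ratios were 1.55, 0.556, 0.624 and 0.429%, and members scattered widely about them. The part that the handling of the libraries or cells has in the WT pattern was not tested.

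**Figure D3:**
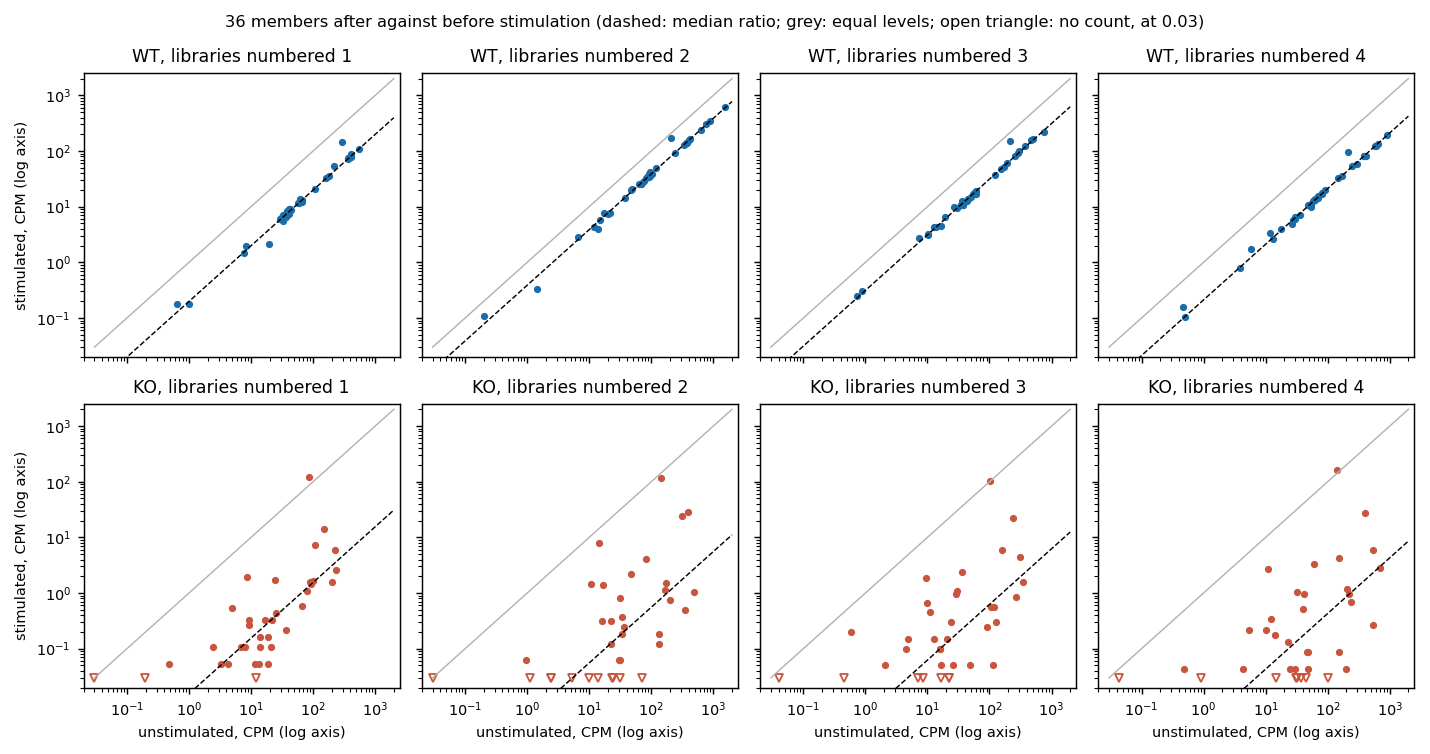
Level of each member after stimulation (y axis) against its level before (x axis) in the libraries of the same run, both in CPM on log axes, for WT (upper row) and KO-labelled cells (lower row). Dashed lines mark the median ratio of each panel, grey lines equal levels and open triangles members with no count after stimulation. Most WT points lie close to the dashed lines at 19.9 to 38.7%. Cst3 lies above them in every WT panel. Other points also lie off them, such as Sirpb1a in run 1 (11.0%) and Xcr1, with few counts, in run 2 (54.1%). KO-labelled points lie far lower and scatter.

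Between stimulated genotypes, 32 of 36 members were lower in KO-labelled cells, where 17.9% of all genes tested were called lower and 25.2% in either direction. All 32 were without overlap, as were 13.5% of all genes in that direction, and the median member log2 difference was -6.54. This comparison rests on the stimulated WT libraries that stood apart. With either inhibitor, where those libraries do not enter, 0 members were lower (2.11% of all genes with XCT790 and 1.88% with CompA). Many members held few counts in WT with an inhibitor, such as Emr4 with 1 count in each inhibitor group. These could hardly be called lower there, so the count of 0 cannot be set beside the shares over all genes. The chains C1qa, C1qb and C1qc were lower by log2 differences of -6.52, -6.38 and -6.98 (SE 0.36, 0.38 and 0.44). Axl was 7.64-fold lower, at 88.2, 302, 164 and 125 CPM in WT against 14.4, 24.4, 22.5 and 27.5 CPM in KO-labelled libraries (log2 -2.93, SE 0.30, adjusted p = 1.17e-08). Vcam1 was at 108, 626, 220 and 195 CPM against 2.57, 1.05, 1.60 and 2.88 CPM (log2 -7.11, SE 0.56, adjusted p = 5.95e-11). Lyz2 was at 53.5, 35.1, 36.4 and 32.6 CPM against 7.40, 4.01, 5.85 and 4.23 CPM (log2 -2.87, SE 0.32, adjusted p = 6.09e-08). Apoe was at 75.2, 235, 125 and 121 CPM against 6.01, 28.5, 4.45 and 6.02 CPM, and its log2 difference moved from -3.65 to -4.63 without KO-labelled library 2.

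Several members were at or near 0 counts in stimulated KO-labelled cells, where their fitted changes depend on the prior count. Adamdec1 had 0 counts against 1445 in WT, so it was at least 504-fold lower, taking 3 counts over the group as the limit of a count of 0. Cd163 had 1 count against 1547 (ratio 1620, interval 290 to 63900), Slco2b1 2 against 1049 (ratio 549, interval 151 to 4540), Hfe 3 against 1082 (ratio 377, interval 129 to 1830) and Sirpb1a 2 against 276 (ratio 144, interval 39.6 to 1200). Their values fell on both sides of what 1 count is worth, about 0.05 CPM. For members this low in KO-labelled cells, single libraries moved the size by over 1.5 times without ending a call. Without KO-labelled library 1 the log2 difference went from -7.74 to -9.81 for Mrc1, from -9.51 to -11.08 for Emr4, from -8.77 to -11.06 for Slco2b1, from -6.84 to -9.13 for Sirpb1a and from -8.00 to -8.63 for Itgad. Without KO-labelled library 2 it went from -6.55 to -7.51 for Clec4a1 and from -3.43 to -4.27 for Alox5ap, without library 3 from -8.34 to -9.27 for Hfe, and without library 4 from -10.07 to -11.63 for Cd163, from -6.07 to -6.96 for Mertk and from -5.52 to -6.35 for Marco. Without WT library 2, where the members were highest, Cd163 (-9.24), Mrc1 (-7.09), Vcam1 (-6.40) and Adamdec1 (-10.87) were closer to 0.

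The 4 members not called between stimulated genotypes were Cst3, Ccl6, Flt3 and Clec9a. Cst3 was at 144, 170, 150 and 95.1 CPM in WT and at 123, 118, 105 and 166 CPM in KO-labelled libraries (log2 -0.13, SE 0.24, adjusted p = 0.73), and it lay between 92.6 and 249 CPM in every stimulated library. Flt3 was at 1.93, 7.59, 4.29 and 1.73 CPM against 1.93, 1.48, 1.85 and 2.70 CPM (log2 -0.95, SE 0.38, adjusted p = 0.0692), and it was called without WT library 1 (adjusted p = 0.024) or 4 (0.0219). Ccl6 was at 7.02, 7.37, 4.49 and 3.94 CPM against 0.536, 8.03, 0.650 and 0.349 CPM, so that library 2 alone reached the WT values. Without it the log2 difference of Ccl6 went from -1.31 to -3.44 and the gene was called (adjusted p = 0.00171). Clec9a was called without KO-labelled library 3 (log2 -3.31, adjusted p = 0.00726). Xcr1, with 2 counts against 13 (ratio 6.80, interval 1.54 to 62.1), was called at an adjusted p of 0.0459, and lost the call without any of the 4 WT libraries or without KO-labelled library 1, 3 or 4 (adjusted p 0.0558 to 0.114).

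**Figure D4:**
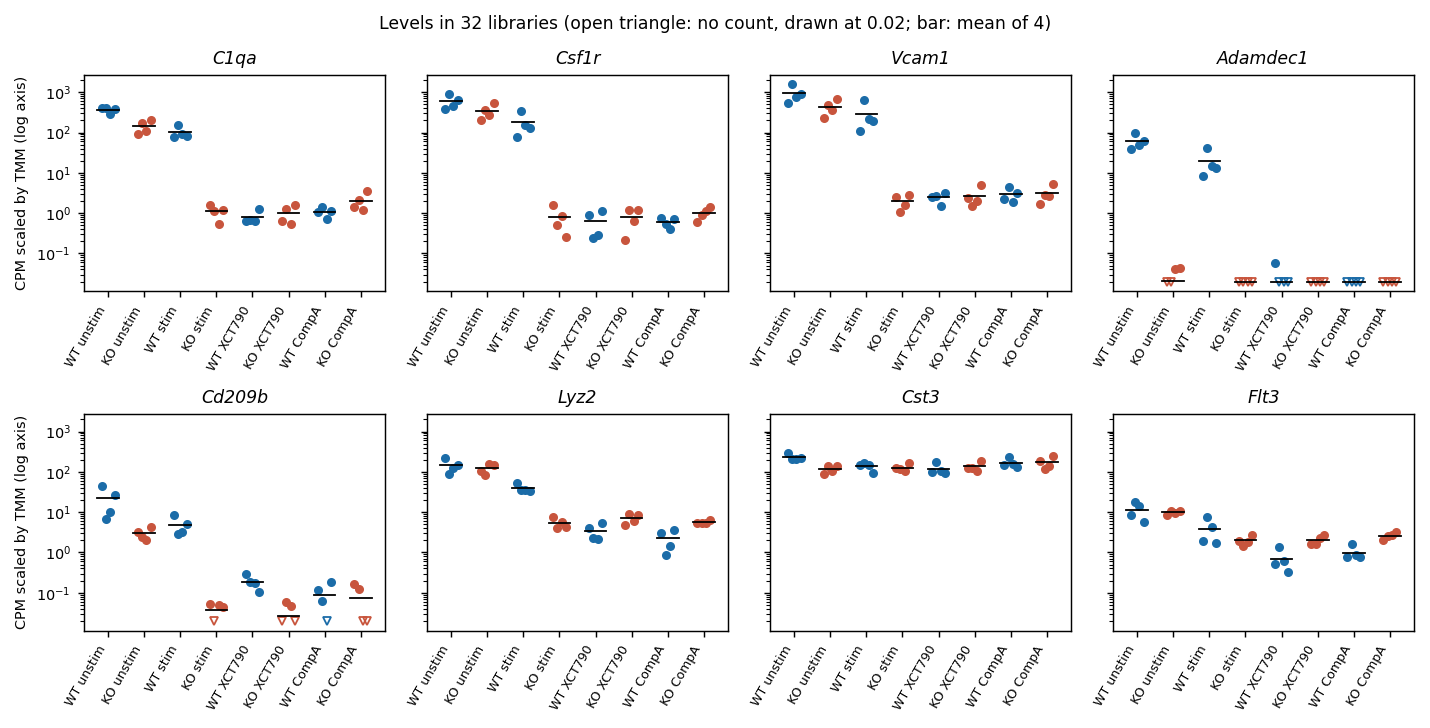
Levels of 8 members in the 32 libraries, as CPM on a log axis for each of the 8 groups, with WT in blue, KO-labelled in red, bars for the mean of 4 libraries and open triangles for libraries with no count. C1qa, Csf1r and Vcam1 step down from unstimulated to stimulated WT and again to the other stimulated groups, Adamdec1 is absent or at 1 count in all KO-labelled libraries, and Cst3 stays level from stimulation on.

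With the inhibitors, both genotypes were at the low level. In the XCT790 groups 2 of 36 members were called, both higher in KO-labelled cells, where 7.4% of all genes were called higher. The count was 7 by DESeq2, 4 with only the groups compared and 1, Axl, by limma-voom. Axl was at 9.31, 7.65, 7.44 and 11.4 CPM in WT and at 19.3, 25.8, 25.9 and 30.6 CPM in KO-labelled libraries (log2 1.5, SE 0.31, adjusted p = 0.00183). Flt3 was at 0.527, 1.34, 0.624 and 0.322 CPM against 1.60, 1.60, 2.24 and 2.66 CPM (log2 1.54, SE 0.45, adjusted p = 0.0282). Neither gene overlapped between genotypes. In all, 3 of 36 members were without overlap and higher, against 10.8% of all genes. In the other direction 1 member, Cd209b, was without overlap, with 2 counts against 13 in WT (ratio 7.18, interval 1.62 to 65.5). It was not called, and no share over all genes is given for that direction. Flt3 lost its call without WT library 1, 3 or 4 or KO-labelled library 3 or 4 (adjusted p 0.073 to 0.102).

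In the CompA groups 4 members were called, all higher in KO-labelled cells, where 5.82% of all genes were. By limma-voom, with or without the run as a block, 1 was called, Axl (adjusted p = 0.0219 and 0.0283), and the other 3 lost the call. Axl was at 6.65, 7.08, 6.02 and 7.37 CPM in WT and at 15.0, 21.1, 18.8 and 22.3 CPM in KO-labelled libraries (log2 1.51, SE 0.32, adjusted p = 0.00249). Lyz2 was at 3.03, 0.854, 1.41 and 3.66 CPM against 5.45, 5.26, 5.48 and 6.51 CPM (log2 1.34, SE 0.37, adjusted p = 0.0225), and Flt3 at 0.759, 1.59, 0.845 and 0.779 CPM against 2.08, 2.50, 2.67 and 3.17 CPM (log2 1.39, SE 0.43, adjusted p = 0.0425). Tgfbi had 2 counts in WT and 73 in KO-labelled cells, a ratio of 33.8 (interval 9.02 to 284). All 4 were separate between the genotypes, and 6 of 36 members were so in that direction in all, against 8.36% of all genes. Lyz2 lost its call without WT library 2 or 3 or KO-labelled library 4 (adjusted p 0.0584 to 0.0913), and Flt3 without WT library 1, 3 or 4 or KO-labelled library 2, 3 or 4 (0.0644 to 0.128). Axl was thus lower in KO-labelled cells before stimulation and after it, and higher with either inhibitor. The groups with inhibitors share no library with the comparisons of unstimulated and stimulated cells.

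Within WT, members were lower with each inhibitor than with stimulation alone. With XCT790, 34 of 36 were called lower, where 20.2% of all genes were, and with CompA 35, where 21.3% were. The exceptions were Cst3 in both and Xcr1 with XCT790. Clec9a lost its call with XCT790 without stimulated library 2 (adjusted p = 0.0503), and Xcr1 its call with CompA without CompA library 1, 2 or 4 or stimulated library 3 (0.0548 to 0.0611). The 2 comparisons share the stimulated WT libraries that stood apart. Csf1r was at 0.878, 0.243, 0.284 and 1.13 CPM with XCT790 and at 0.759, 0.549, 0.394 and 0.719 CPM with CompA, against 77.7 to 344 CPM without inhibitor. In KO-labelled cells edgeR called 0 of 36 members with XCT790, and 0 had an unadjusted p under 0.05, where 11.3% of all genes were called in either direction. With CompA it called 0 as well, 2 had an unadjusted p under 0.05, and 19.3% of all genes were called. DESeq2 called 0 and 1. Many members held few counts in stimulated KO-labelled cells already, such as Cd163 with 1 and Emr4 with 5 over the group. A further fall could hardly be called for these, so counts of 0 cannot be set beside the shares over all genes. In KO-labelled cells Csf1r was at 0.214 to 1.23 CPM with XCT790, 0.618 to 1.45 CPM with CompA and 0.262 to 1.56 CPM without inhibitor. The effect of the inhibitor differed between genotypes for 27 members with XCT790 (17.5% of all genes were called in that direction) and for 29 with CompA (15.6%). In all of these the change was more negative in WT.

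Genes beside the members that mark the same cells were read from lists of other markers. All 9 tested of 12 other resident macrophage markers were lower in KO-labelled cells, unstimulated and stimulated, where 23.6% and 17.9% of all genes were. The stimulated comparison rests here too on the stimulated WT libraries that stood apart. Slc40a1, the iron exporter ferroportin, was at 1142 ± 169 CPM in unstimulated WT and 395 ± 176 CPM in KO-labelled cells (mean ± SD, n = 4, log2 -1.53, adjusted p = 0.00179), and Cd5l, a protein secreted by macrophages, at 327 ± 118 and 120 ± 65.8 CPM (log2 -1.45, adjusted p = 0.00137). Of 12 other conventional dendritic markers 3 were lower and 1 higher before stimulation, near the 23.6% lower and 12.5% higher of all genes. Of 8 monocyte markers 1 was lower, and of 11 tested of 13 neutrophil markers 0 were called. Of 13 transcription factors and signal adaptors of macrophages and dendritic cells, 5 were lower and 2 higher. None of these counts was tested against the shares over all genes, and the lists were chosen with earlier results of these data known. Nr1h3, the liver X receptor alpha, was at 50.4 ± 8.91 and 22.9 ± 9.31 CPM (log2 -1.14, adjusted p = 0.000504).

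Of 7 tested of 8 ligands of the member receptors, 2 were higher and 2 lower in unstimulated KO-labelled cells. Over all genes 12.5% were higher and 23.6% lower, and the counts of ligands were not tested against these shares. Csf1, the ligand of Csf1r, was higher at 26.2 ± 7.78 CPM against 5.59 ± 1.56 CPM in WT (log2 2.22, SE 0.29, adjusted p = 4.89e-06), while Flt3l, the ligand of Flt3, was lower at 43.7 ± 2.51 against 70.8 ± 16.6 CPM (log2 -0.70, adjusted p = 0.00438). Gas6, a bridging ligand of Axl and Mertk, was lower at 1.76 ± 0.571 against 3.90 ± 1.12 CPM (log2 -1.15, adjusted p = 0.00828). After stimulation Csf1 was at 4.74 ± 1.06 CPM in WT against 4.88 ± 1.59 CPM in KO-labelled cells. Of other complement genes, Cfp, which encodes properdin, was lower before stimulation at 101 ± 39.3 against 259 ± 41.8 CPM (log2 -1.36, adjusted p = 0.000117), and 2 of 8 tested of 14 were lower in all, near the share over all genes.

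Markers of cells other than macrophages moved with the members in part, and their part in the results was not tested. In unstimulated libraries, the 13 neutrophil markers summed to 29.7 to 265 CPM in WT and 16.3 to 154 CPM in KO-labelled cells, and the 10 B cell markers to 152 to 230 and 94.4 to 748 CPM. The 11 stromal markers summed to 15.2 to 48.7 CPM in WT and 10.7 to 24.0 CPM in KO-labelled cells, and nearly all of it was 1 gene, the collagen gene Col14a1, with means of 27.6 and 14.0 CPM. The other stromal genes were each at a mean under 1 CPM, and Col1a1 held 23 counts in WT and 37 in KO-labelled cells, Col1a2 14 and 22. The 7 endothelial markers summed to 27.8 to 46.5 and 10.6 to 30.1 CPM, most of it Stab2, a scavenger receptor, with means of 27.6 and 13.8 CPM, while Kdr, a receptor for VEGF, was at 0.685 and 1.22 CPM. After stimulation the stromal sum was 2.63 to 18.5 CPM in WT and 0.0617 to 0.400 CPM in KO-labelled cells, with 3 and 4 of the 11 genes at 0 in the group, and Col14a1 at a mean of 7.87 CPM and at 0 counts. The endothelial sum was 5.97 to 20 CPM in WT and 0.432 to 2.1 CPM in KO-labelled cells. Stab2 made up 7.99 CPM of it in WT and 0.0532 CPM in KO-labelled cells, where Kdr, at 1.29 CPM against 0.598 CPM in WT, was nearly the whole sum.

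**Figure D5:**
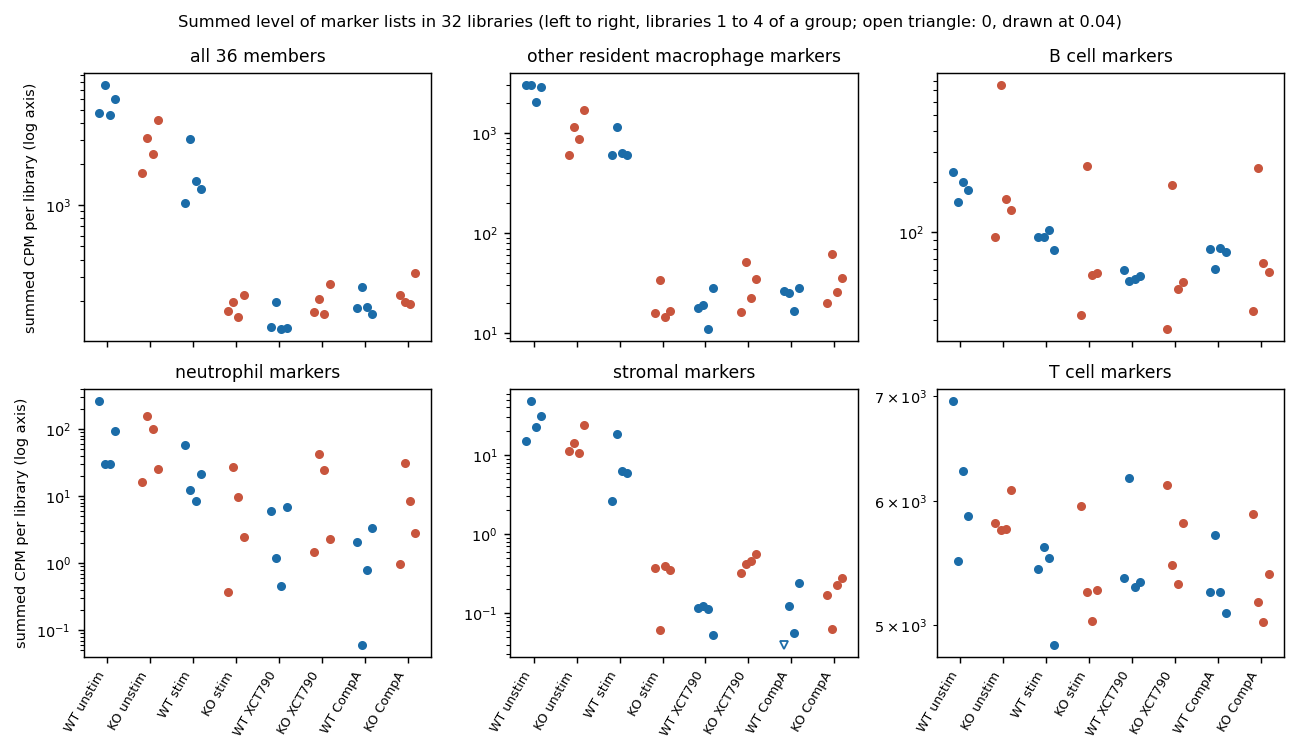
Summed CPM (log axes) of the 36 members and of 5 marker lists in each of the 32 libraries, by group, with WT in blue and KO-labelled in red. Members and other resident macrophage markers fall in stimulated WT and further in the other stimulated groups, the sum of stromal markers does so through Col14a1, B cell markers are highest in library 2 of each KO-labelled group (748 CPM unstimulated), and T cell markers stay between 4860 and 6954 CPM.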

How the data were processed

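Poly(A) RNA was sequenced from CD4+ T cells in 32 directional libraries, per the labels' protocols. The deposited files, 1 for each sample, list raw read counts per gene without normalization by the authors. Tools and the genome build named in the submitters' processing notes are Trimmomatic 0.36, HISAT2 2.1.0, SAMtools, HTSeq 0.9.1, R 3.4.4, DESeq2 1.18.1 and mm10. The strand setting of the counting was not given in the sources used here, so overlapping genes and near-identical copies (Lyz2 and Lyz1, the Sirpb1, Cd209 and Clec4a families) may share reads. The 5 summary lines of each file that name no gene were left out.

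All 32 libraries entered 1 fit of edgeR 4.0.16 (quasi-likelihood F test, TMM factors, limma 3.58.1, R 4.3.3) with a mean per group, and filterByExpr at its defaults kept 12332 genes. Members were read from 13 contrasts of that fit, with Benjamini-Hochberg adjustment over all genes tested and a threshold of 0.05. Log2 changes carry the SE of the fit, which uses a prior count of 0.125. On counts simulated for the unstimulated genotype comparison over 11893 genes, 75.2% of 105 genes changed 2-fold and 100% of 92 changed 4-fold were called, with 5 false calls. The simulation drew each gene independently with the spread of the trend over genes, and fitted the unstimulated groups only. Its rates therefore need not hold for the members. Where a group held 1 to 3 counts, ratios carry exact 95% intervals.

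The 36 members and 17 other gene lists were chosen with earlier results of these data known. Values per library are given for up to 4 members of each role with the highest mean CPM. They were also meant for members whose call between genotypes differed before and after stimulation. Of these, Sirpb1a, Alox5ap and Xcr1 are given without such values. Other genes are named from the smallest adjusted p of their list. Marco, Cd209b and Adamdec1 are given for the size of their difference, a choice made after their values were seen. Samples were grouped by title. No 2 libraries of a group agreed within sampling noise. No label says what a run of 4 title numbers has in common. The correlation between libraries of the same run, taken over deviations from group means, was 0.125 to 0.779 over all pairs of KO-labelled treatments. In WT it was 0.417 to 0.629 for unstimulated with stimulated and 0.234 to 0.635 for XCT790 with CompA, but down to -0.332 for the others, so a block for the run is an alternative only. Other alternatives were DESeq2 1.42.0, limma-voom, library totals, upper-quartile factors, no filter on low counts, a fit of the groups compared only, each library left out in turn and, added after seeing the data, all 4 KO-labelled libraries numbered 2 left out.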

Additional observations from a re-analysis of the deposited data

Results flagged for a closer look

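Single libraries stood apart from the other 3 of their group by Dixon's gap test in 12 of 148 combinations of a member and a group with a mean of at least 1 CPM. Such gaps arise by chance in about 1 in 20 groups. In stimulated WT the highest library was library 2 for C1qb (137 CPM), Igf1 (25.7 CPM), Hfe (25.5 CPM) and Treml4 (34.9 CPM). In unstimulated WT the lowest library was library 3 for C1qc (301 CPM) and the highest was library 1 for Cst3 (291 CPM), while for Cst3 with XCT790 in WT it was library 2 (172 CPM). In KO-labelled cells library 2 was highest for Apoe when stimulated (28.5 CPM) and for Ccl6 when stimulated (8.03 CPM), with XCT790 (4.68 CPM) and with CompA (3.69 CPM). Library 1 was lowest for Siglech in unstimulated KO-labelled cells (2.42 CPM).

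The interaction test of edgeR called differences between genotypes in 3 responses, all of which use the 4 stimulated WT libraries that stood apart and kept members in the proportions of the unstimulated library of their run. With an inhibitor, both genotypes were at a low level. The change with stimulation differed for 30 members, among them Emr4 (log2 difference of -8.02, KO minus WT) and Axl (-1.91). The change with XCT790 did so for 27 members, among them Emr4 (10.15) and Flt3 (2.49), and that with CompA for 29, among them Slco2b1 (10.59) and Flt3 (2.34). The values of Emr4 and Slco2b1 with inhibitors rest on 1 to 5 counts a group in all groups but stimulated WT, and depend on the prior count.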

How the results depend on the processing

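The direction of each member with a call held under every alternative run. Of the log2 changes of single members recomputed under the alternatives other than the one added later, 7552 kept their side of the threshold, 107 passed it newly and 112 lost it. The counts of members called lower in KO-labelled cells, unstimulated and stimulated, stayed within 1.5 times of the count given. For the unstimulated genotype comparison they were 16 with only the groups compared, 19 with DESeq2 or library totals, 21 with upper-quartile factors and 28 with limma-voom. With XCT790 the genotype count was 7 by DESeq2, 1 by limma-voom and 4 with only the groups compared, where fewer members passed the filter. With CompA the genotype count was 1 by limma-voom, and the CompA count in KO-labelled cells was 1 by DESeq2. The causes were not tested.

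The run as a replicate block was a fixed term of an edgeR fit, except for genotype comparisons, which used limma-voom with a correlation within runs. Genotype counts were then 28 unstimulated, 34 stimulated and 1 with CompA. Limma-voom without the block gave 28 unstimulated and 1 with CompA as well, so the block cannot be told apart from the change of method there. The CompA count in KO-labelled cells was 2 with the block, and no other count of members moved by over 1.5 times. With 1 library left out at a time, genotype counts were 19 to 26 unstimulated, 31 to 33 stimulated, 1 to 4 with XCT790 and 2 to 5 with CompA. Stimulation counts were 33 to 36 in WT and 34 in KO-labelled cells, XCT790 counts 33 to 34 and 0, and CompA counts 34 to 35 and 0 to 1. Counts of interactions were 30 to 32 for stimulation, 24 to 29 for XCT790 and 24 to 30 for CompA. Scaling by library totals moved the median of all genes by 0.21 in the unstimulated genotype comparison. Without the 4 KO-labelled libraries numbered 2, added after seeing the data, 23 and 33 members were lower in KO-labelled cells, unstimulated and stimulated. Depth limits members with 1 to 3 counts in a group, for which 1 count is worth 0.0391 to 0.0637 CPM.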
